A study of Xenopus laevis with 12 samples.

Results

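The genes described here encode the proteasome of the African clawed frog Xenopus laevis, measured in ribosome-bound RNA of retinal ganglion cells after crush of the optic nerve. Members were the gene models whose symbol, without the copy ending .L, .S or a number, begins with psm, a letter from a to g and a digit. This rule found 66 of 45099 gene models. One of them, psmc3ip.1, shares only the name: it encodes a recombination cofactor that binds PSMC3 and is described apart. The other 65 models stand for 37 gene names, most present as a .L and a .S copy (homeologs) from the ancestral genome duplication. Genes of further subunits, psma1, psma5, psma7, psmb4, psmb6, psmb10, psmc4, psmd4 and psmd12 among them, were not matched by symbol and are not analysed here.

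The proteasome degrades proteins tagged with ubiquitin. Its barrel-shaped core is built of alpha subunits, which form the outer rings and the gate, and beta subunits, some of which carry the proteolytic sites. The regulatory particle that caps the core has a ring of ATPases, which unfold and feed in the substrate, non-ATPase base subunits, and a lid that removes ubiquitin chains. Dedicated chaperones assemble the core and the base, alternative activators can replace the cap, and inducible beta subunits replace the constitutive ones mainly in immune tissue. In neurons the proteasome takes part in protein turnover in axons and synapses, and cells that need more of it raise its subunit genes together.

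All frogs were post-metamorphic, over 6 months old, and carried an EGFP-tagged ribosomal protein rpl10a under an islet2b promoter, which drives it in ganglion cells. They were F1 progeny of founder females. Ribosomes were pulled from retinas with antibodies against EGFP (TRAP), and each TRAP library combined RNA of 3 biological replicates, so each condition is 1 library. The crush libraries, 4 in number, came from the right eye at days 1, 3, 7 and 11 after crush of its optic nerve, and 4 from the untouched left eye of the operated frogs (contralateral). The others were 1 library of both eyes of unoperated frogs (naive), 1 each from the left and the right eye 1 day after sham surgery without crush, and 1 of total retina RNA. The naive, sham and contralateral libraries are called the 7 uncrushed TRAP libraries below. A sentence of the series' design text puts the crush in the left eye; the sample labels put it in the right eye and were followed.

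Library totals ran from 16820571 to 63299998 estimated counts. Ganglion cell markers summed to 10788 to 11846 CPM (counts relative to library size, scaled between libraries with TMM factors) in the 7 uncrushed TRAP libraries against 1379 CPM in total retina, and photoreceptor markers to 1067 to 1373 against 21616 CPM. After crush the photoreceptor markers summed to 1309, 1282, 878 and 843 CPM at days 1, 3, 7 and 11. Of 14 such models tested 10 were lower and 0 higher in late crush (days 7 and 11), against 23.8% and 24.8% of all genes. In the crushed eye the ganglion cell markers summed to 10398, 7145, 6340 and 10498 CPM at days 1, 3, 7 and 11. Of the 16 ganglion cell models tested 9 fell with day and 1 rose, against 6.85% and 5.83% of all genes. In late crush 11 were lower and 3 higher, against 23.8% and 24.8%. The sum at day 11 was carried by the tubulin copies tubb3.L and tubb3.S, at 3245 and 4032 CPM, and by nefm.L at 1364 CPM, while rbpms2.L went from at least 3066 CPM uncrushed to 161 CPM and sncg.L from at least 570 to 18.7 CPM. The part of this shift in the proteasome values was not tested. How many cells contribute and how much RNA each one holds cannot be told apart in these libraries.

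The proteasome genes varied little in their summed level between the 7 uncrushed TRAP libraries, while groups of them differed widely in level. Levels of different genes are compared here as deposited TPM, which is corrected for length. Summed over the 65 models they made up 5628 to 6105 TPM (median 5861) in the 7 uncrushed libraries. The alpha rings accounted for a median of 1523 TPM from 4 gene names, the beta rings for 1424, the lid for 1178 and the ATPase ring for 1007. The non-ATPase base genes psmd1 and psmd2 together reached 215 TPM, the base chaperones 222, the core chaperones 194 and the activators 55.6. The group called inducible beta here, psmb8.L, psmb9.S and the thymus-type psmb11.L, stood at 1.75 TPM.

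Core subunits stand at fixed proportions in the assembled particle, but their transcripts did not. With both copies summed, psma6 had the highest median of the 9 core genes, at 493 TPM, followed by psma4 at 423 and psmb7 at 398. psmb2 had the lowest, at 138.5 TPM, so the span was 3.56-fold. The range of psmb2 over the 7 libraries (133 to 142 TPM) and that of psma6 (471 to 563) were far apart. In late crush the span was 3.61-fold, and the top place went to psma2, whose mean over days 7 and 11 was 783 TPM against 736 for psma6. Copies counted under other model names would add to these sums.

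**Figure D1:**
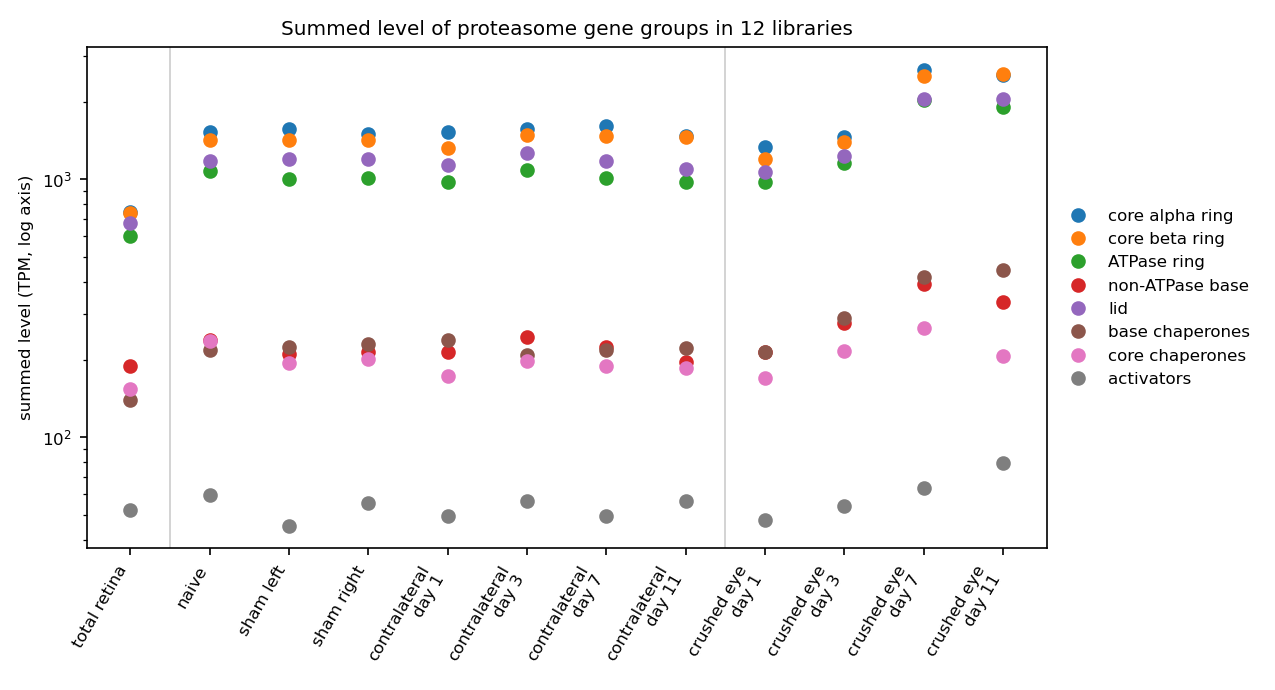
Summed TPM (log axis) of each group of proteasome genes in the 12 libraries, 1 point per group and library, with vertical lines between total retina, the 7 uncrushed TRAP libraries and the 4 crush libraries. The alpha rings lay between 1471 and 1611 TPM in the uncrushed libraries and at 2657 and 2543 at days 7 and 11 after crush, with total retina at 749; the inducible beta genes, below 3 TPM in every uncrushed library, are not drawn.

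Proteasome transcripts made up a larger share of ganglion cell TRAP RNA than of total retina RNA. Total retina had 3311 TPM, a level that the uncrushed median exceeded 1.77-fold. Of 59 members with 200 counts over the naive and total retina libraries, 28 were over 2-fold higher in the mean of the 7 uncrushed libraries and 1 was over 2-fold lower. Over 19677 genes these shares were 18.8% and 19.5%. The median log2 ratio was 0.98, against 0.13 over all genes, and it lay between 0.85 and 1.09 when each of the 7 libraries was set against total retina. All ratios rest on 1 total retina library and were not tested. That library was not pulled down with ribosomes, so cell type and ribosome binding cannot be told apart in them.

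Group medians of this enrichment differed among the parts of the complex, while the ranges of several groups overlapped. The alpha ring had the highest group median (log2 ratio 1.30), with psma6.L at 1.49, and the beta ring followed at 1.15, with psmb5.L, the catalytic subunit of chymotrypsin-like activity, at 1.65. The ATPase ring stood at 1.01, the lid at 0.98 and the non-ATPase base at 0.58, where psmd1.1 was at -0.01. The base chaperones stood at 0.61, the core chaperones at 0.31 and the activators at 0.20. Members ran from 0.91 to 1.50 in the alpha ring and from 0.03 to 1.60 in the lid. The member over 2-fold lower was psme4-like.L, named after PA200, an activator known in mammals for its role in the testis: its CPM was 42.4 in total retina and 10.9 to 16.7 in the 7 uncrushed libraries, all below it.

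By days 7 and 11 after crush nearly every structural proteasome gene was higher. Against the 7 uncrushed libraries, 56 of 64 members tested were higher and 1 was lower in edgeR's quasi-likelihood test, where 24.8% of 28631 genes were higher and 23.8% lower. The model not tested, psmg3.S, had 0 counts in all 12 libraries. Among the 44 models of the core rings, the ATPase ring, the non-ATPase base and the lid, leaving out the 2 scarce models named psmb7.2, all 44 were higher, and all 44 lay above each of the 7 uncrushed libraries at both days. Their log2 fold changes ran from 0.55 to 1.91 with a median of 1.31, or 2.48-fold. The middle 50% lay between 1.06 and 1.54, whereas for all genes it lay between -0.92 and 0.70. At an unadjusted p under 0.05, 56 of the 64 members were higher and 2 lower, against 26.8% and 26.4% of all genes. Adjusted p was at most 6.26e-05 among the 44, and each had at least 655 counts in every TRAP library. The coefficient of variation over the 7 uncrushed libraries ran from 2.33% to 17.9%, with a median of 8.09%.

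The size of the rise depended on scaling. Scaling by total counts lowered the median ratio of crushed to contralateral eye over all genes to -0.21 at day 7 and -0.41 at day 11, against 0.00 and -0.08 with TMM, and it lowered the median late change of the proteasome genes from 1.19 to 0.89. With total counts 55 of 64 members were still higher, against 17.6% of all genes. On the TPM scale the 65 models summed to 10375 and 10130 TPM at days 7 and 11, 1.77 and 1.73 times the uncrushed median. Of the 44 structural models 41 lay above all 7 uncrushed libraries at both days in TPM as well, whereas psma4.S, psmb3.S and psmd3.L did not: their late means were 1.06, 1.03 and 1.02 times their uncrushed medians in TPM. With total counts these 3 still passed in edgeR, with log2 changes of 0.31, 0.28 and 0.25. Days 7 and 11 are treated as 2 samples of late crush, and these days were picked with earlier results known.

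**Figure D2:**
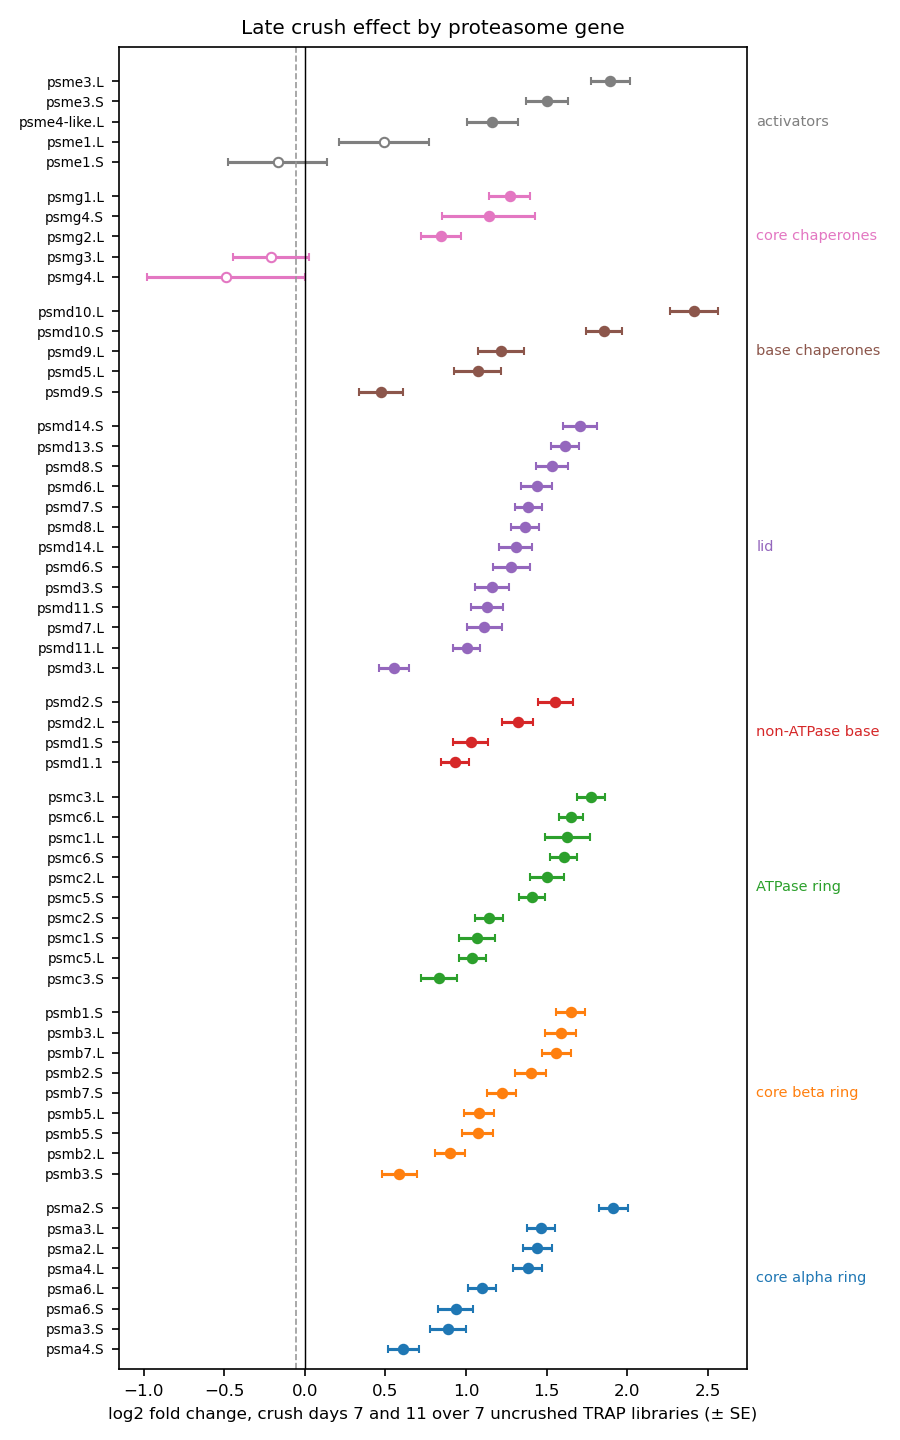
Log2 fold change of crush days 7 and 11 over the 7 uncrushed TRAP libraries, with its standard error, for the 59 proteasome genes with an uncrushed median of at least 1 CPM, grouped by role; filled points passed an adjusted p of 0.05, open points did not, and the dashed line is the median of all genes (-0.05). Of the 59 genes 55 are filled and lie to the right of 0, and the 4 open points are copies of psme1, psmg3 and psmg4.

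All 8 alpha ring models were higher in late crush. psma6.L, the most abundant by count, had 139 to 173 CPM (median 150) in the uncrushed libraries and 123, 159, 329 and 314 CPM at days 1, 3, 7 and 11 after crush. Day 1 thus lay below and days 7 and 11 above the uncrushed range, and the late change was 1.10 ± 0.09 on the log2 scale (standard error, adjusted p = 3.13e-10). psma2.S had the largest change of the ring: it went from 68.9 to 87.5 CPM (median 81.0) to 66.7, 112, 291 and 291 CPM, a late change of 1.91 ± 0.09 (adjusted p = 3.99e-14). It was above the uncrushed range from day 3 on. psma4.S changed least, with 86.8 to 108 CPM (median 105) before and 89.8, 94.3, 144 and 158 CPM after crush (0.61 ± 0.10, adjusted p = 1.11e-05). In CPM both late libraries lay above its uncrushed range.

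The 9 abundant beta ring models were all higher too. psmb1.S had 112 to 142 CPM (median 127) uncrushed and 94.9, 149, 391 and 399 CPM after crush, a change of 1.65 ± 0.09 (adjusted p = 2.78e-13). psmb5.L, one of the proteolytic subunits, had 128 to 161 CPM (median 132) uncrushed and 124, 140, 271 and 304 CPM after crush (1.08 ± 0.09, adjusted p = 1.41e-09). The copies of psmb3 differed: psmb3.L changed by 1.59 ± 0.10 and psmb3.S by 0.59 ± 0.11 (adjusted p = 6.26e-05), the smallest change of the ring. psmb3.S had 91.3 to 114 CPM uncrushed and 96.4, 82.0, 135 and 170 CPM after crush.

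The models named psmb7.2 were scarce. psmb7.2.S had 0 to 45 counts in each uncrushed library and 15, 16, 186 and 206 counts at days 1, 3, 7 and 11 after crush. Its CPM was at most 0.754 uncrushed and 3.39 and 5.35 in late crush (adjusted p = 8.15e-05). psmb7.2.L had 0 counts in both late libraries and did not pass (adjusted p = 0.181). Reads shared with the abundant psmb7 copies cannot be separated here.

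In the ATPase ring all 10 models were higher in late crush, with a median change of 1.45. psmc6.L, the most abundant by count, had 149 to 163 CPM (median 159) in the uncrushed libraries and 148, 175, 477 and 490 CPM after crush, a change of 1.65 ± 0.08 (adjusted p = 2.11e-14). Its uncrushed range was narrow, and day 3 already lay above it. psmc3.L went from 113 to 137 CPM (median 130) to 120, 167, 424 and 433 CPM (1.78 ± 0.08, adjusted p = 4.71e-14), while its homeolog psmc3.S went from 38.2 to 48.2 CPM to 38.9, 45.4, 76.2 and 71.9 CPM (0.83 ± 0.11, adjusted p = 1.35e-06).

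The 4 non-ATPase base models encode the large scaffold subunits that hold receptors for ubiquitin. psmd2.L had 92.5 to 115 CPM (median 107) uncrushed and 97.4, 149, 276 and 243 CPM after crush (1.32 ± 0.09, adjusted p = 4.03e-11). psmd2.S changed by 1.55 ± 0.11 (adjusted p = 3.64e-11), from a range of 61.1 to 88.3 CPM to 236 and 208 CPM at days 7 and 11. psmd1.1 changed least, from 84.9 to 96.6 CPM to 165 and 166 CPM (0.93 ± 0.09, adjusted p = 5.14e-09). In all 4 models both late libraries lay above all uncrushed ones.

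All 13 lid models were higher, with a median change of 1.31. psmd3.L had the highest counts of the lid models, not corrected for its length, and changed least of the 44 structural models: it had 176 to 230 CPM (median 210) uncrushed and 199, 202, 297 and 296 CPM after crush (0.55 ± 0.09, adjusted p = 2.79e-05). psmd13.S had 99.3 to 117 CPM (median 113) uncrushed and 98.0, 127, 307 and 359 CPM after crush (1.61 ± 0.09, adjusted p = 2.78e-13). psmd14.S, a copy of the deubiquitinase that cuts chains from substrates, had 49.1 to 68.0 CPM uncrushed and 50.4, 63.4, 180 and 202 CPM after crush (1.70 ± 0.11, adjusted p = 4.66e-12). Within the lid the changes thus spanned more than their standard errors.

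The base chaperones included the largest change of any proteasome gene above 1 CPM. psmd10 encodes gankyrin, which helps assemble the ATPase ring. psmd10.L had 6.86 to 9.36 CPM (median 8.77) uncrushed and 9.31, 16.5, 41.4 and 46.3 CPM after crush, a change of 2.41 ± 0.15 (adjusted p = 3.54e-12). The more abundant psmd10.S went from 40.2 to 55.8 CPM to 50.9, 92.1, 161 and 182 CPM (1.86 ± 0.11, adjusted p = 2.19e-12). Both copies lay above all uncrushed libraries from day 3. psmd5.L changed by 1.07 ± 0.15 (adjusted p = 1.85e-06). psmd9.S had the smallest change, 0.47 ± 0.14 (adjusted p = 0.00579), with 30.4 to 38.0 CPM uncrushed and 29.4, 22.2, 38.7 and 53.4 CPM after crush; with total counts (adjusted p = 0.350), or without day 11 (adjusted p = 0.331), it did not pass.

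The chaperones of the core were mixed: 3 of 5 tested models were higher. psmg1 and psmg2 encode partners in a dimer that guides assembly of the alpha ring. psmg1.L had 29.6 to 37.8 CPM uncrushed and 27.8, 52.8, 89.4 and 63.9 CPM after crush (1.27 ± 0.13, adjusted p = 1.63e-08). psmg2.L had 30.4 to 44.3 CPM and then 30.4, 33.0, 72.7 and 65.0 CPM (0.84 ± 0.12, adjusted p = 3.95e-06). psmg1.L was thus above its uncrushed range at day 3 and psmg2.L was not. In TPM psmg2.L stood at 88.43 and 72.98 at days 7 and 11 against 51 to 73.12 uncrushed, so day 11 lay inside that range. The core chaperones summed to 264 and 205 TPM at days 7 and 11 against 172 to 236 uncrushed, with day 11 inside as well. psmg4.S changed by 1.14 ± 0.29 (adjusted p = 0.00201) at 3.07 to 11.0 CPM, whereas psmg4.L (-0.49 ± 0.49, adjusted p = 0.449) and psmg3.L (-0.21 ± 0.24, adjusted p = 0.503) did not pass. psmg3.L had 7.11 to 13.7 CPM uncrushed and 7.36 and 9.41 CPM in late crush, inside that range.

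Among activators, the nuclear PA28-gamma gene psme3 and psme4-like.L were higher and the PA28-alpha gene psme1 did not pass. psme3.L had 18.5 to 24.4 CPM uncrushed and 18.0, 40.2, 82.7 and 74.6 CPM after crush (1.89 ± 0.12, adjusted p = 5.92e-12). psme3.S had 14.2 to 17.6 CPM and then 17.3, 21.5, 46.5 and 42.5 CPM (1.50 ± 0.13, adjusted p = 1.65e-09). Both copies were above the uncrushed range from day 3, and psme4-like.L was so from day 1: it had 10.9 to 16.7 CPM uncrushed and 18.3, 26.5, 31.7 and 29.6 CPM after crush (1.16 ± 0.16, adjusted p = 1.35e-06).

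psme1 encodes a subunit of the activator that is paired with inducible beta subunits. psme1.L had 5.55 to 10.6 CPM uncrushed and 7.38, 4.94, 6.52 and 16.0 CPM after crush (0.49 ± 0.28, adjusted p = 0.160). psme1.S had 9.12 to 11.7 CPM and then 6.77, 6.41, 3.81 and 14.0 CPM (-0.17 ± 0.31, adjusted p = 0.693). The late libraries disagreed: day 7 was low and day 11 high in psme1.S, and without day 11 its change was -1.38 (adjusted p = 0.000404). Without day 7, psme1.L was higher by 0.97 (adjusted p = 0.00676).

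The genes grouped as inducible beta were at or near 0 in ganglion cell TRAP RNA, with or without crush. The inducible subunit gene psmb10 was not matched by symbol. psmb8.L had at most 13 counts in any TRAP library and 34 in total retina, where it reached 1.24 CPM. psmb9.S had at most 28 counts in an uncrushed library, that of the left sham eye, and 0 in crush libraries of days 3, 7 and 11. Without crush it was also at 0 counts in the naive library and at 1 in the right sham eye. psmb11.L is grouped here although it is named after the subunit of the mammalian thymus and not after an inducible one. It had 0.0579 to 0.922 CPM uncrushed and 0 counts at days 7 and 11. A limit of 3 counts over both late libraries is 0.0321 CPM, which makes psmb11.L at least 12.3-fold and psmb9.S at least 7.41-fold lower than in the pooled uncrushed libraries. These bounds depend on the controls: the contralateral eyes of days 7 and 11 held only 1 and 7 counts of psmb11.L (0.0579 and 0.153 CPM). For psmb9.S they held 11 and 17 counts (0.637 and 0.371 CPM). psmb11.L was the 1 member lower past the threshold (adjusted p = 0.0126; 0.0707 without day 7 and 0.0594 without day 11), and psmb9.S did not pass (0.0570). Limits from counts cover counting error only. Of 10 tested models of MHC class I and interferon genes, which rise with the inducible subunits in immune responses, 2 were higher and 3 lower in late crush, near the shares of all genes (24.8% and 23.8%). The 11 models of this list summed to 47.7 to 68.8 CPM uncrushed. After crush they summed to 63.3, 85.2, 52.0 and 45.2 CPM at days 1, 3, 7 and 11. The sum at day 3 thus lay above the uncrushed range, in 1 library, and was not tested.

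Markers of leukocytes summed to 4.29 to 9.89 CPM uncrushed and to 6.36, 14.2, 43.9 and 68.3 CPM at days 1, 3, 7 and 11 after crush. Of the 6 marker models, nearly all of the late sum was the chemokine receptor copies cxcr4.L and cxcr4.S, at 20.1 and 47.3 CPM at day 11. The leukocyte-defining ptprc (CD45) and spi1 copies were at most 0.572 CPM in any late library. Of 7 Mueller glia marker models tested 3 were higher in late crush and 0 lower, against 24.8% and 23.8% of all genes. The 3 were vim.L, with 5.21 to 11.1 CPM uncrushed and 194 and 397 CPM at days 7 and 11 (adjusted p = 1.92e-08), vim.S and slc1a3.S. The markers rlbp1.L (0.21, adjusted p = 0.451), rlbp1.S (-0.19, adjusted p = 0.429) and slc1a3.L (-0.20, adjusted p = 0.538) did not pass. The whole list summed to 109 to 175 CPM uncrushed and 299 and 570 CPM at days 7 and 11, of which vim.L alone made up 194 and 397 CPM. The part of these cells in the proteasome values was not tested.

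The change was not a steady climb from the first day. At day 1 after crush, 31 of 64 members (48.4%) lay below all 7 uncrushed libraries and 1 lay above, where 10.4% of all genes lay below and 11.4% above. Of the 8 alpha ring models 7 were below, and of the 11 beta ring models 7, as psma6.L and psmb1.S show above. The dip was small: the median log2 ratio of crushed to contralateral eye was -0.13, the middle 50% of members lay between -0.21 and 0.02, and the sum over the 65 models was 5223 TPM against at least 5628 uncrushed. The sham eyes had a median ratio (right over left) of 0.01 among the members. Each day is 1 library against 1 and was not tested.

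At day 3 the groups differed in how many models lay outside the uncrushed range. Of the 64 members 22 (34.4%) lay above and 10 (15.6%) below all uncrushed libraries, against 25.7% and 26.1% of all genes. The alpha ring had 1 model above and 3 below and the beta ring 3 and 3, while the ATPase ring had 5 above and 0 below, the non-ATPase base 3 and 0, and the base chaperones 3 and 1. The median ratio over all members was -0.02. That median was 0.26 for the non-ATPase base, 0.33 for the base chaperones and 0.54 for the activators. It was 0.02 for the ATPase ring, 0.07 for the beta ring, -0.03 for the lid, -0.06 for the core chaperones and -0.15 for the alpha ring. Among members above 1 CPM the highest ratio was that of psmd10.S at 1.10 and the lowest that of psme1.L at -0.79.

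By day 7 most members of most groups lay above, and day 11 was similar. Above all uncrushed libraries lay 56 members (87.5%) at day 7 and 58 (90.6%) at day 11, against 31.8% and 31.3% of all genes; 2 lay below on each day, against 30% and 32.3%. The median log2 ratio to the contralateral eye was 1.17 at day 7 and 1.30 at day 11, and 37 and 49 members were over 2-fold higher, against 20.9% and 19.5% of all genes tested. From day 7 to day 11 the CPM of the 44 structural models changed by a median of 0.06 on the log2 scale, against -0.06 over all genes tested. In CPM 32 of the 44 were higher at day 11, a share that was not taken over all genes. In TPM the sum over the 65 models was instead lower at day 11 (10130) than at day 7 (10375). None of these differences was tested. Lower in CPM at day 11 than at day 7 were the core chaperone psmg1.L and the activator psme3.L, and also structural models such as psmd2.L and psma6.L.

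**Figure D3:**
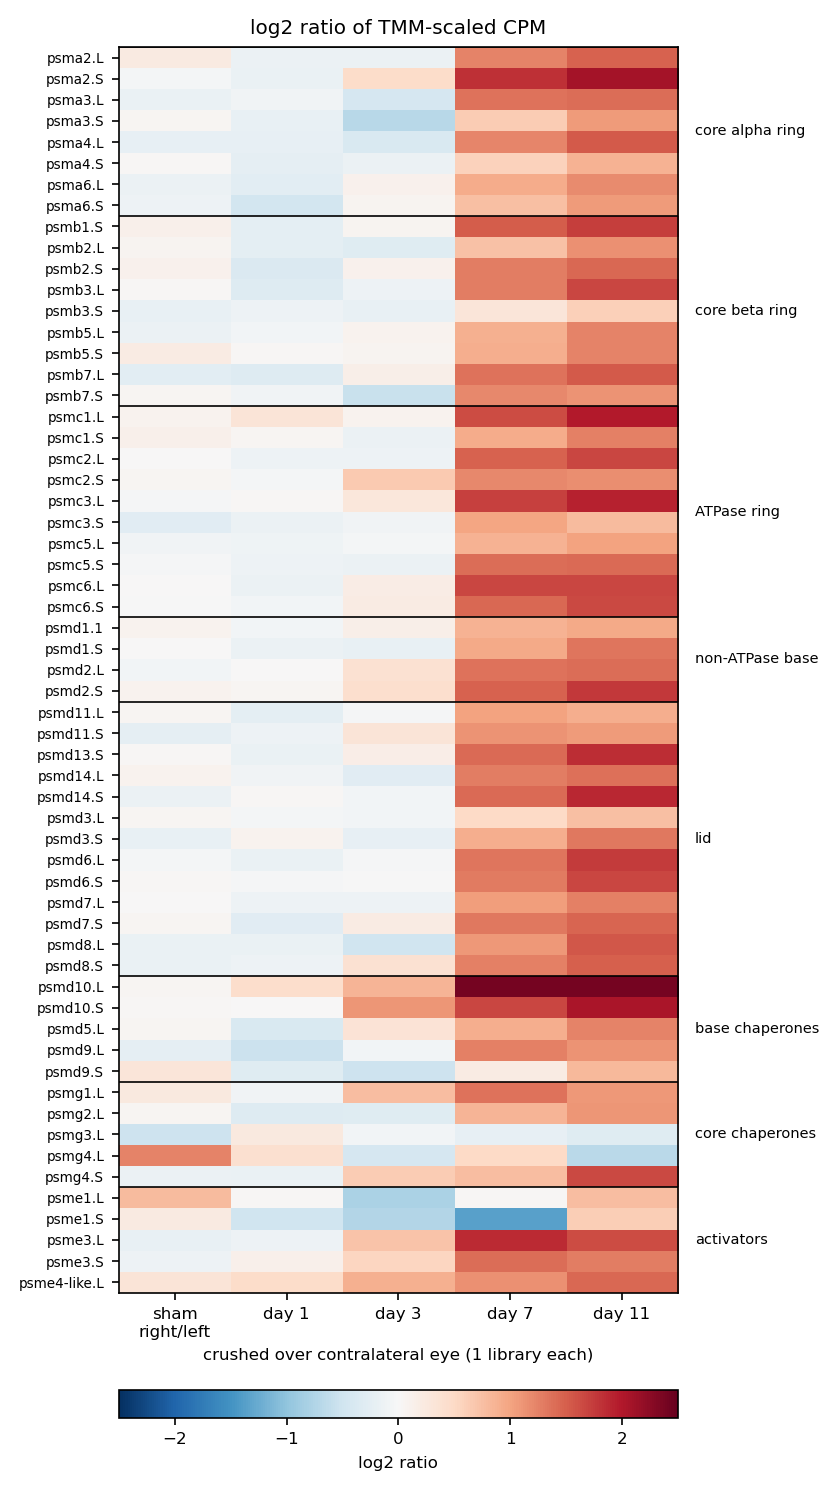
Log2 ratio of TMM-scaled CPM between the right and left sham eyes and between the crushed and contralateral eyes at days 1, 3, 7 and 11 (1 library each), for the 59 proteasome genes with an uncrushed median of at least 1 CPM; red is higher on the operated side and blue lower. Days 7 and 11 are red for almost all genes (median ratios 1.17 and 1.30 over the 64 members), day 1 is pale with a median of -0.13, and at day 3 the psmd10 and psme3 copies are red while psma3.S is blue.

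The ratio was also tested against time, in a fit to the same 4 crush and 4 contralateral libraries. The ratio rose with log2 of the day for 36 of 61 members tested and fell for 0, where 5.83% of 26004 genes rose and 6.85% fell. Of the 44 structural models 30 rose, and the other 14 had slopes above 0 that did not pass. psma2.S had the highest slope of these, 0.69 ± 0.12 per doubling of the day (adjusted p = 0.00723), followed in the other groups by psmb1.S (0.62 ± 0.12, adjusted p = 0.0125), psmd13.S (0.62 ± 0.12, adjusted p = 0.0115) and psmc3.L (0.60 ± 0.12, adjusted p = 0.0141). psmd10.L rose by 0.64 ± 0.15 (adjusted p = 0.0223). The lowest slopes of their groups, psmb3.S (0.22, adjusted p = 0.252), psmd3.L (0.25, adjusted p = 0.178) and psma4.S (0.33, adjusted p = 0.0869), did not pass.

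The slope test has 2 residual degrees of freedom. Its count of 36 was 7 of 61 without day 7, 1 of 61 without day 11 and 17 of 61 with total counts, where 2.19%, 2.2% and 3.38% of all genes rose. Without day 11 the members' count was thus no higher than the share of all genes. The effect shared by all 4 days, with day as a block, was called for 0 of 61 members, where 0.0385% of all genes were higher and 0 lower. A crush effect that changes with day widens the spread used by this test, which limits what it can call. Of the members 14 were higher and 0 lower at an unadjusted p under 0.05, against 11.2% and 9.56% of all genes, DESeq2 called 4 of 61 higher where it called 6.6% of all genes, limma-voom called 0, and 7 of 60 were higher in edgeR without day 1, where 6.25% of all genes were.

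The .L and .S copies of a subunit often changed by different amounts, although all structural copies were higher in late crush. Some pairs rose alike, such as psmb5, with late changes of 1.08 for .L and 1.07 for .S. Shares were taken for 26 proteasome pairs with at least 100 counts of both copies together in every TRAP library. The .L share of the TPM, which is corrected for length, was above 50% in all 7 uncrushed libraries for 16 pairs. It was below 50% in all 7 for 3, and neither count was set against a share over all gene pairs. The 16 include psmg3, whose .S copy had 0 counts, so that its .L share was fixed at 100% and could not shift. At days 7 and 11 the .L share of the counts lay outside the uncrushed range, to the same side on both days, in 19 of 26 pairs, 11 to higher and 8 to lower .L shares. Over all 4744 pairs this held for 46.5%, with 24.1% to higher and 22.4% to lower shares, and the median shift was 6.98 percentage points for proteasome pairs against 5.98 over all pairs, a difference that was not tested.

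The copies of a pair can differ in length, so a count share shows a shift and not which copy has more transcripts. The largest shift toward .L was that of psmb3, from 38.5% to 46.2% uncrushed to 60.3% and 58.6% of the counts at days 7 and 11. In TPM psmb3.L was the higher copy throughout, with 185 to 232 TPM uncrushed against 91.8 to 115 for psmb3.S. psma4 went from 48.4% to 55.3% to 65.9% and 64.3%, and psmc3 from 73.0% to 77.8% to 84.8% and 85.8%. Toward .S went psmd3, from 73.2% to 78.1% to 67.9% and 65.5%, and psma2, from 46.1% to 54.8% to 42.5% and 44.4%. The shift in psmg4, to 18.6% and 9.4%, rests on 113 and 44 counts of psmg4.L. Counting assigns reads of near-identical copies by estimate, and both sides of a pair can share reads.

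**Figure D4:**
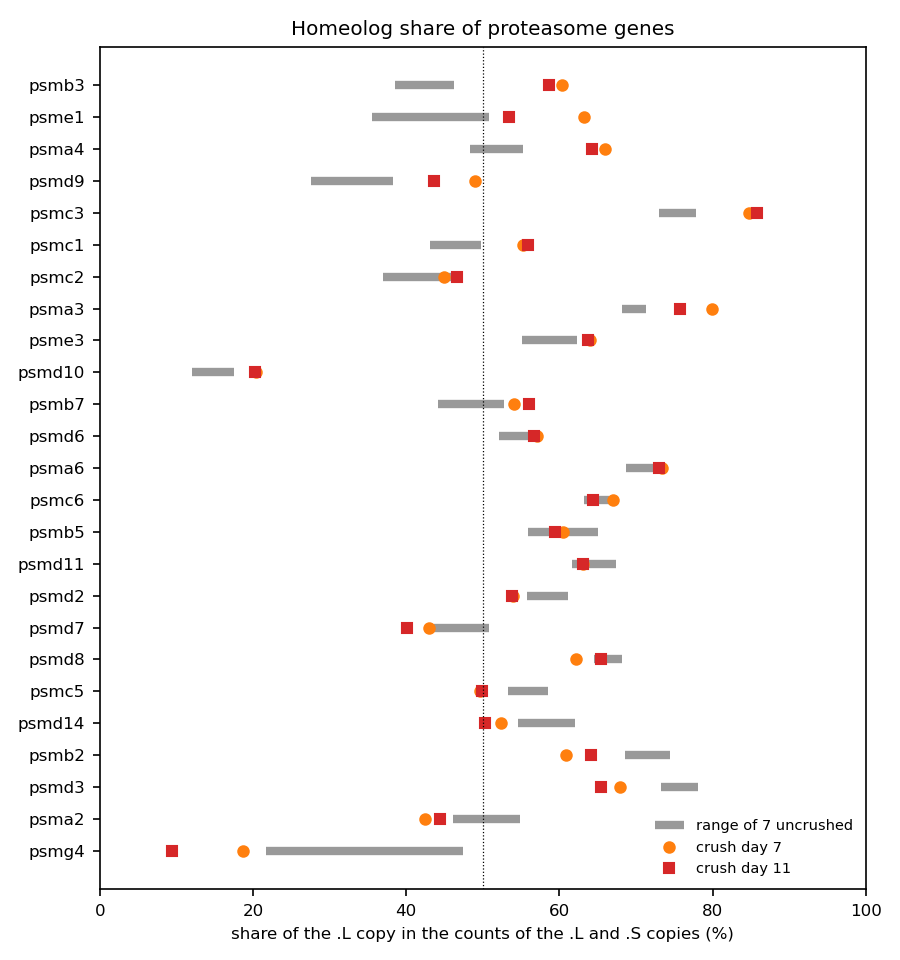
Share of the .L copy in the summed counts of the .L and .S copies (percent) for 25 proteasome pairs, ordered by the shift; the grey bar is the range of the 7 uncrushed TRAP libraries, the circle day 7 and the square day 11 after crush. psmb3 at the top moved from below to above 50% of the counts, which are not corrected for the length of the copies, psmb5 and psmd11 stayed inside their uncrushed ranges, and psmg3, whose .S copy had 0 counts, is left out.

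Other genes of the ubiquitin system moved less uniformly. Of 105 tested models in lists of shuttle factors, proteasome cofactors, p97 (the segregase that extracts ubiquitin-tagged proteins), ubiquitin-activating and -conjugating enzymes and transcription regulators, 65 were higher and 17 lower in late crush, against 24.8% and 23.8% of all genes. By slope, 13 rose and 3 fell, against 5.83% and 6.85% of all genes. Proteasome cofactors had 13 higher and 2 lower of 15 with a median change of 1.01, and shuttle and receptor genes 9 and 0 of 11 (0.68). p97 and its cofactors had 12 and 1 of 21 (0.41), and conjugating enzymes 20 and 10 of 41 with a median of 0.24. Ubiquitin and activating enzyme genes had 5 and 0 of 6 (0.75).

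txnl1.S, a thioredoxin-like protein that binds the proteasome, went from 57.1 to 64.4 CPM to 51.3, 71.3, 253 and 258 CPM and had a slope of 0.75 ± 0.14 (adjusted p = 0.0104). zfand2a.L, a stress-inducible proteasome-binding protein, went from 4.36 to 6.48 CPM to 27.5 and 25.3 CPM in late crush (slope 0.63 ± 0.16, adjusted p = 0.0293). The highest slope, that of the scarce ubxn7.L (0.85 ± 0.41), did not pass. Chosen after their values were seen, the assembly factor pomp.S changed by 1.27 ± 0.10 in late crush (adjusted p = 1.09e-10), and the ubiquitin receptor copies adrm1.L and adrm1.S by 1.26 ± 0.09 and 1.53 ± 0.11.

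The transcription regulators split in late crush, with 6 higher and 4 lower of 11 tested models, against 24.8% and 23.8% of all genes. By slope 0 rose and 3 fell, against 5.83% and 6.85%. NRF1, the factor best known in mammals for raising proteasome genes, is encoded by nfe2l1, which was not matched by symbol and is not analysed here. nfe2l2.S (NRF2) fell with day by 0.61 ± 0.12 (adjusted p = 0.0116): it had 48.0 to 63.8 CPM uncrushed and 59.1, 34.1, 16.3 and 17.7 CPM after crush. nfe2l2.L fell by 0.46 ± 0.11 (adjusted p = 0.0255), and mafg.L, a small partner of these factors, fell by 1.02 ± 0.18 (adjusted p = 0.00816), from 14.2 to 23.5 CPM to 1.91 and 2.88 CPM in late crush. Also chosen after their values were seen, nfe2l3.L and nfe2l3.S (NRF3) were higher in late crush by 1.38 ± 0.18 and 1.04 ± 0.12 (adjusted p = 1.18e-06 and 1.94e-07). Their slopes of 0.42 and 0.34 did not pass (adjusted p = 0.106 and 0.0801 in the slope test). The lowest slope among these lists, that of ube2c.S (-1.05, adjusted p = 0.474), did not pass.

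psmc3ip.1, which matches the name rule but encodes no proteasome protein, had 6.06 to 9.57 CPM uncrushed and 4.47, 2.49, 8.76 and 10.4 CPM after crush. It passed neither the late test (0.36 ± 0.23, adjusted p = 0.209) nor the slope test (adjusted p = 0.112).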

How the data were processed

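The submitters' processing notes name Trimmomatic 0.33, Bowtie2 2.2.5 and RSEM 1.2.21. Which build and gene models they used is not given in the sources used here. Tables deposited by the authors hold expected counts (estimated read counts per gene model, rounded here, moving no total by more than 0.000797%), TPM and, unused here, FPKM and model lengths. Members and lists were chosen with earlier results of these data known. Tests used edgeR 4.0.16 in R 4.3.3 (quasi-likelihood, robust, TMM, filterByExpr), with Benjamini-Hochberg adjustment over all genes tested and a threshold of 0.05. They compared crush days 7 and 11 with the 7 uncrushed TRAP libraries, tested the slope of the crush to contralateral ratio on log2 of the day, and tested the 4-day effect; the last 2 had day as a block, since both eyes came from the same frogs, per the labels. Deviations of same-day libraries from their group means correlated at 0.0834, 0.0594, 0.0463 and 0.0432 across genes at days 1, 3, 7 and 11. The p-values measure the spread between pooled libraries of unlike conditions, since no condition has a replicate library. In the late test this spread lies among the 7 uncrushed libraries of several treatments and days, and between days 7 and 11. Eyes of the same frogs entered that test as separate libraries. In the 4-day test it is the difference of the crush effect between days, and in the slope test the departure from a line. CPM used TMM factors over 12 libraries, and log2 ratios a prior count of 2. Standard errors of edgeR changes and slopes were derived as the absolute log2 value divided by the square root of the test's F statistic. DESeq2 1.42.0 and limma-voom 3.58.1 were alternatives. Scripts were tested on simulated data. Named genes were, per role, the most abundant and those of highest and lowest slope, and all inducible and activator genes; psmb3.L, psmb5.L, psmd14.S, psmd5.L, psmg2.L and psmg3.L were added after their values were seen. TPM values of the 44 structural models, of psmg2.L and of the copies were also compared, after the data were seen. The promoter motif search that had been planned was not run, and no sequence is printed.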

Additional observations from a re-analysis of the deposited data

Results flagged for a closer look

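The effect of crush on proteasome genes differed between days: the interaction of crush with log2 of the day passed for 36 of 61 members, the slope test described above, where 5.83% of all genes rose and 6.85% fell; it passed for 7 without day 7, 1 without day 11 and 17 with total counts. Of 78 groups of values checked for a library far from the others, 4 were marked, and chance marks about 1 in 20. The beta ring sum of the contralateral eye at day 1, 1326 TPM, lay below the other 6 uncrushed libraries, and the inducible beta sum at day 3, 2.75 TPM, above them. Among the 4 crush libraries, psmg4.L was lowest at day 11 with 1.14 CPM, and psmb9.S was at 0.251 CPM at day 1 and at 0 on the other days.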

How the results depend on the processing

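In the comparison of late crush with uncrushed libraries, 55 to 57 members were higher under every scaling, filter, tool and left-out library tried, and with the contralateral eyes of days 7 and 11 and a replicate block as the only controls (56). With copies summed 32 of 37 gene names were higher. With all 4 crush days in place of days 7 and 11, an alternative chosen after seeing the data, 23 of 62 were higher and 0 lower, where 11.8% of all genes were higher. The count of lower members was 2 with total counts and with DESeq2, 0 with the replicate block, and 0 to 2 when 1 library was left out. The slope count of 36 fell to 17 with total counts, and leaving out 1 day gave 1 to 51. Without the replicate block it was 34, and on a linear scale of days 33. The 4-day count of 0 became 4 in DESeq2, ranged from 0 to 7 without 1 day, and was 0 without the replicate block. At day 1, 2 members lay above the uncrushed range with total counts, and 3 above that of the contralateral eyes alone, against 1. The median TRAP to total retina ratio was 0.84 with total counts. Single genes that turned direction had not passed in the main tests. Without day 11 the slopes were -0.30 for psme1.S, -0.027 for psme1.L and 0.0032 for psmg4.L. The late change was -0.29 for psme1.L without day 11 and 0.46 for psme1.S without day 7. The cause of these changes was not tested. With 1 pooled library per condition, single days have no replicate check. The inducible genes are too scarce for a fold change beyond the count limits given above.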
